A study of Mus musculus with 4 samples.

Results

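The 10 genes described here build and clothe the chylomicron in the mouse small intestine. They are 5 apolipoprotein genes (Apoa1, Apoa4, Apob, Apoc2 and Apoc3), 3 genes that load lipid onto the growing particle (Mttp, Pla2g12b and Tm6sf2), the secretory GTPase gene Sar1b and the transcription factor gene Creb3l3. They were chosen by name as known parts of the pathway, with earlier results of these data known, so the choice was not independent of the values. Every one had a row of its own among the 22467 symbols of the normalized expression table. All were among the 10886 genes abundant enough to test. RNA was sequenced from jejunal epithelium of adult mice on a mixed 129xC57/Bl6xSvJ background. The control group held 2 Cre- mice, and the other group held 2 mice labelled Hnf4a;Cdx2 double-knockout. Controls and mutants alike had received tamoxifen, 1 mg on each of 5 days, which switches on the recombinase where it is present. Which promoter drove Cre, and which exons were floxed, is not given in the sources used here. The epithelium had been lifted off with EDTA as a whole layer, so that absorptive and secretory cells entered each library together.

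Enterocytes re-esterify absorbed fat to triglyceride in the endoplasmic reticulum and package it with a single molecule of apolipoprotein B into a chylomicron. Microsomal triglyceride transfer protein lipidates apolipoprotein B as it is made, further lipid is added in the reticulum lumen, and the particle leaves in COPII carriers built by the GTPase Sar1b before it is secreted into lymph with apolipoproteins of the A and C classes on its surface. HNF4A, one of the factors targeted here, is a nuclear receptor long known as an activator of apolipoprotein genes in liver and intestine. CDX2, the other, is a homeodomain factor that sets intestinal identity.

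Apoa1 and Apoa4 were among the 6 most abundant transcripts of the epithelium in all 4 libraries, while Pla2g12b, the least abundant member, ranked between 744 and 1779. Pla2g12b was the only member that changed by the test used, and it fell 2.49-fold. No member passed in the other direction, although Apoc2 averaged 2.03-fold higher in the libraries labelled double knockout. Its functional opposite Apoc3 averaged 1.95-fold lower, and neither passed the test. Sar1b differed little between the group means, and Apoa4 and Apob gave values that overlapped between the groups.

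In numbers, limma on log2(FPKM + 1), with Benjamini-Hochberg adjustment over all genes tested and a call at an adjusted p under 0.05, called 1 of the 10 members lower, beside 5.85% of all genes tested. It called 0 of 10 higher, beside 3.79% of all genes. At an unadjusted p under 0.05 the same fit had 4 members lower, beside 15.0% of all genes tested, and 0 higher, beside 13.3%. The authors' deposited table of their own comparison tested all 10 members and called 1 lower, again Pla2g12b, beside 7.31% of the genes it tested. That deposited table, made by the authors, called 0 members higher, beside 5.90% of its genes. In 6 members both libraries labelled double knockout lay below both controls, an arrangement seen in 29.5% of all genes tested. In 1 member, Apoc2, both lay above, as in 31.2% of all genes. The log2 fold change was negative in 8 of 10 members with a median of -0.45, while over all genes tested 47.7% were negative and the median was 0.025. The unit throughout was taken to be FPKM, fragments per length of transcript and per depth of library. On that reading levels can be compared between genes.

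Several facts of the whole series bear on these values. Hnf4a was at 156 and 202 FPKM in the controls and at 31.6 and 48.2 FPKM in the libraries labelled double knockout, a log2 fold change of -2.16 ± 0.27 (SE) with a limma adjusted p of 0.0147. Cdx2, the other targeted gene, went against its label. Its FPKM was 70.9 and 65.2 in the controls and 159.8 and 161 in the mutants, a log2 fold change of 1.23 ± 0.15 (SE) with a limma adjusted p of 0.0150. FPKM is given for a gene as a whole and does not show whether particular exons were deleted, so the genotype is given here as a label only. The labels call the libraries of a group independent biological replicates, and with 2 against 2 an exact permutation test of a single gene cannot give a p below 0.333. The files hold no read counts. From the step size of low values, reads per normalized FPKM were estimated relative to control 1. The estimates were about 0.685 in control 2, 0.652 in double-knockout library 1 and 0.498 in double-knockout library 2. By this estimate alone double-knockout library 2 was the shallowest of the 4, and whole reads were not recovered from those values.

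Markers of the cells that could make up the layer were summed per library. The enterocyte list had 7911 and 10193 FPKM in the controls and 7775 and 6372 FPKM in the libraries labelled double knockout. Of its 9 tested genes limma called 3 lower, namely Vil1, Epcam and the brush-border disaccharidase gene Sis, and 0 higher. Over all genes tested these shares were 5.85% and 3.79%. The authors' deposited table called 1 gene of the list lower and 0 higher, beside 7.31% and 5.90% of the genes it tested. Alpi, Anpep and Cdh1, named after their values were seen, had both mutant libraries above both controls without passing the test (Alpi at 447, 645, 1106 and 764 FPKM), and the differentiation keratin Krt20 overlapped between the groups at 1469, 1895, 1655 and 1432 FPKM. Slc5a1 (1002, 1507, 728 and 422 FPKM) and Cdhr5 (559, 530, 478 and 361 FPKM) had both mutant libraries below both controls, also without passing. The list therefore held markers of either direction. Of the 9 tested, 6 had a negative log2 fold change, and the median was -0.39. The Paneth cell sum was 44723 and 39708 FPKM in the controls and 28975 and 62845 FPKM in the mutants, and the enteroendocrine sum was 288 and 243 FPKM in the controls and 89.6 and 66.8 FPKM in the mutants, with 3 of 5 tested genes called lower. Hepatocyte markers, whose RNA would also carry apolipoprotein messages, summed to 0.411 to 2.90 FPKM with Alb at no more than 0.561 FPKM. The goblet sum ran from 6888 to 9350.1 FPKM, the crypt and cycling sum from 266 to 539, the tuft sum from 17.5 to 74.4, the leukocyte sum from 43.1 to 122 and the stromal sum from 0.748 to 5.04, with no gene of these lists called. Endothelial markers summed to 2.38 and 2.98 FPKM in the controls and to 208 and 159 FPKM in the mutants, nearly all of it from Lyve1, since Pecam1, Cdh5 and Kdr were at 0.447 FPKM or less in every library. Of the erythroid list only Alas2 had a row, at no more than 0.369 FPKM. In whole epithelium, fewer cells of a type and less RNA per cell cannot be told apart.

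Apoa1 encodes the main protein of high-density lipoprotein and is also carried on nascent chylomicrons. The gene (mm9, chr9:46036712-46038552) was at 13836 and 12679.5 FPKM in controls 1 and 2 and at 11598 and 7879 FPKM in double-knockout libraries 1 and 2. Both mutant values lay below both controls, with most of the distance in library 2. The group means were 13258 ± 818 and 9738 ± 2630 FPKM (SD, n = 2 each), the log2 fold change was -0.47 ± 0.36 (SE), and its limma adjusted p was 0.447. Apoa1 ranked 2nd, 3rd, 4th and 6th of all genes in the 4 libraries.

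Apoa4, which encodes an apolipoprotein that enterocytes secrete on chylomicrons after fat feeding, lies beside it (mm9, chr9:46048926-46051541). It was at 10098 and 12914 FPKM in the controls and at 17023 and 8240.2 FPKM in the libraries labelled double knockout. The mutant libraries held both the highest and the lowest of the 4 values. Mean levels were 11506 ± 1991 and 12631.5 ± 6210.2 FPKM (SD, n = 2 each), and limma gave a log2 difference of 0.053 with an interval from -1.16 to 1.26 (95%) and an adjusted p of 0.957. The interval leaves room for a change of either direction of more than 2-fold, and the sign of the difference turned when the libraries were quantile normalized (-0.39). Apoa1 and Apoa4 together made up 3.71% and 3.84% of all summed FPKM in the controls and 4.15% and 2.50% in the mutants.

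The 250 bases before the start of Apoa4 are shown because they hold an exact match to CAAAGTTCA, one of 2 nuclear receptor motifs searched, and no other window of these genes matched either of the 2 to the letter. The sequence is from RefSeq, build GRCm38.p6, chr9:46240594-46240843, plus strand, 5′ to 3′, with the match in capitals at positions -182 to -174 counted from the start.
Apoa4: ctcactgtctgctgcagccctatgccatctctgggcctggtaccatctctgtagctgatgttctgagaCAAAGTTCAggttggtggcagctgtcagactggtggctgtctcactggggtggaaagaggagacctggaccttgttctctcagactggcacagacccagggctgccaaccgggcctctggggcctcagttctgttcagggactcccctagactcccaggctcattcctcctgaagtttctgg

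**Figure D1:**
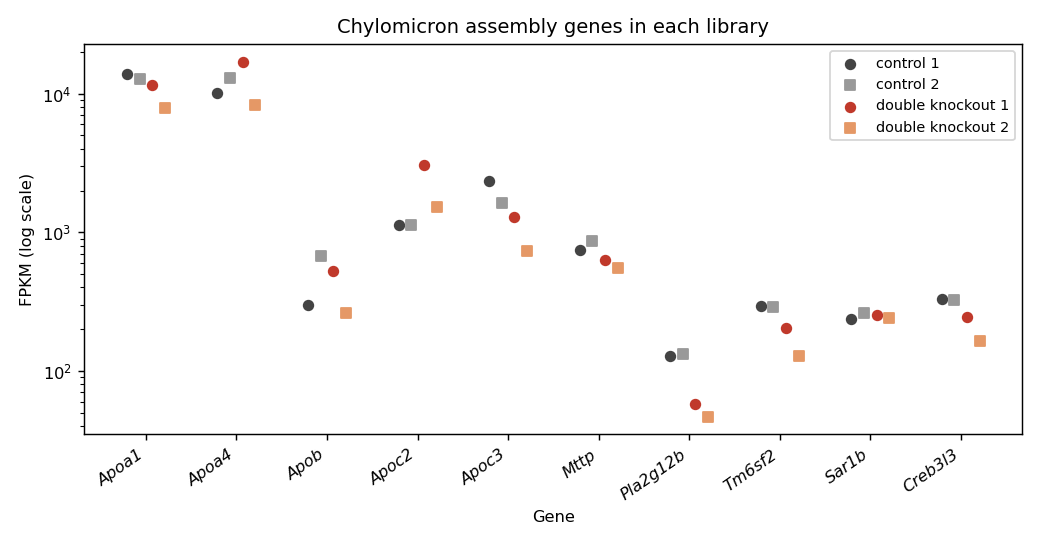
FPKM (log axis) of the 10 chylomicron genes, 1 point per library, with the 2 controls and the 2 libraries labelled double knockout side by side. Apoa1 and Apoa4 stand at 7879 FPKM or more in every library, Pla2g12b shows the widest gap for its spread (130.4 against 52.4 FPKM), and in all 10 genes library 1 labelled double knockout lies above library 2.

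Apoc3 and Apoc2 act in opposite ways once the particle is in the blood. Apolipoprotein C-II is the cofactor that lipoprotein lipase needs to release fatty acids, and apolipoprotein C-III restrains lipolysis and the uptake of remnants. Apoc3 (mm9, chr9:46041132-46043719), which sits between Apoa1 and Apoa4, was at 2331 and 1626 FPKM in the controls and at 1292 and 739 FPKM in the libraries labelled double knockout. Both mutant values were below both controls. The means were 1979 ± 499 and 1015 ± 391 FPKM (SD, n = 2 each), and the log2 fold change of -0.99 ± 0.37 (SE) had a limma adjusted p of 0.161 and an unadjusted p of 0.0430. The authors' deposited table gave group values of 1992 and 1007 FPKM for Apoc3 with a q-value of 0.0656.

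Apoc2 (mm9, chr7:20256927-20263290) was nearly equal in the controls, at 1137 and 1123 FPKM, and stood at 3061 and 1534 FPKM in the mutants. Both mutant libraries were above both controls, but they differed 2.00-fold from each other. The means were 1130.1 ± 10.3 and 2298 ± 1080.1 FPKM (SD, n = 2 each), the log2 fold change was 0.94 ± 0.38 (SE, 95% interval -0.042 to 1.92), and limma gave an adjusted p of 0.191. Among all genes tested this fold change lay at percentile 93.9, and that of Apoc3 at percentile 7.08. In the authors' deposited table Apoc2 had 1136 FPKM for control and 2277 FPKM for mutant, with a q-value of 0.131. Apoc4 begins just beyond Apoc2 on the same chromosome (mm9, chr7:20263432-20266809) and was at no more than 0.635 FPKM in any library.

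The C apolipoproteins were also set against each other within a library, a ratio chosen after its values were seen. As Apoc2 averaged higher and Apoc3 lower in the mutants, their ratio differs more than either gene by arithmetic alone. Apoc2 over Apoc3 was 0.488 and 0.690 in the controls and 2.37 and 2.08 in the mutants. The ratio divides out any factor common to both genes in a library, and the mutant libraries, which differed 2.00-fold in Apoc2 and 1.75-fold in Apoc3, were close in it. As a share of the summed FPKM of the 5 apolipoproteins, Apoc2 had 4.11% and 3.87% in the controls and 9.14% and 8.22% in the mutants. Apoc3 had 8.42% and 5.60% in the controls and 3.86% and 3.96% in the mutants. No test was run on these ratios. Apoa1 over Apoc3 also kept the groups apart, at 5.93 and 7.80 in the controls and 8.98 and 10.7 in the mutants. Apoa4 over Apoa1 nearly met between them, at 0.730 and 1.02 in the controls and 1.47 and 1.05 in the mutants. Apob over Mttp overlapped, at 0.399 and 0.785 against 0.826 and 0.470.

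**Figure D2:**
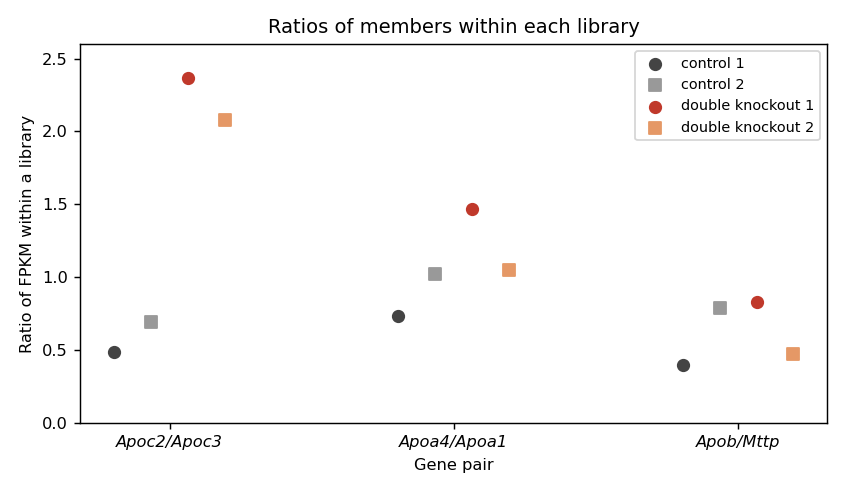
Ratios of FPKM between pairs of chylomicron genes within each library, 1 point per library, controls and libraries labelled double knockout side by side. Apoc2 over Apoc3, a pair chosen after its values were seen, is at 0.488 and 0.690 in the controls and at 2.37 and 2.08 in the mutants. Apob over Mttp overlaps between the groups.

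The window before Apoc2 is shown because this member had the greatest difference in the upward direction. It is from RefSeq, build GRCm38.p6, chr7:19677942-19678191, minus strand, printed 5′ to 3′ along the gene, and the capitals mark a match to the CDX motif TTTATNG, read from the opposite strand, at -174 to -168.
Apoc2: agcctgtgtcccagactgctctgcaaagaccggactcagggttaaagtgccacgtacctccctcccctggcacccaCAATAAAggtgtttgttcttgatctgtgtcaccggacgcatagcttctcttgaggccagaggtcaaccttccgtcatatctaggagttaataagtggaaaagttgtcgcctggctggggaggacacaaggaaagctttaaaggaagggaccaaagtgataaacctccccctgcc

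Apob encodes the structural protein around which the particle forms. Enterocytes make its short form by editing a codon of the messenger RNA into a stop with the deaminase Apobec1. The gene (mm9, chr12:7984482-8023645) was at 298 and 676 FPKM in the controls and at 522 and 261 FPKM in the libraries labelled double knockout. The controls already differed more than the group means did, and the groups overlapped. The means were 487 ± 267 and 391 ± 184 FPKM (SD, n = 2 each), and limma gave a log2 difference of -0.28 ± 0.52 (SE) with an adjusted p of 0.764. Leaving out single libraries moved that difference from -0.87 to 0.31, so no direction can be given.

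The 3 genes of Apob editing were measured as a list. Apobec1 was at 23.8 and 34.1 FPKM in the controls and at 46.7 and 57.9 FPKM in the mutants, with the groups apart, a log2 fold change of 0.85 ± 0.23 (SE) and a limma adjusted p of 0.0915. Rbm47, an RNA-binding cofactor of editing, was at 54.0, 54.3, 48.6 and 51.4 FPKM in the order controls then mutants (limma adjusted p 0.654). A1cf, the classical complementation factor, is named after its values were seen, because it is the one of the 3 genes that the authors' deposited table called (q-value 0.0326, 31.4 FPKM in control and 16.7 in mutant). In the normalized table A1cf was at 27.0, 38.1, 19.5 and 14.8 FPKM, and its limma adjusted p was 0.0891. Thus limma called 0 of the 3 lower and 0 higher, with 1 lower and 1 higher at an unadjusted p under 0.05. The level of edited message is not measured by these values.

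Mttp encodes the large subunit of microsomal triglyceride transfer protein, which moves lipid onto apolipoprotein B. It was at 747 and 861 FPKM in the controls and at 632 and 555 FPKM in the mutants (mm9, chr3:137752818-137806352). Both mutant libraries lay below both controls, by a small distance. The means were 804 ± 81.2 and 593 ± 54.2 FPKM (SD, n = 2 each), and the log2 fold change of -0.44 ± 0.21 (SE) had a limma adjusted p of 0.242. P4hb, the disulfide isomerase that forms the other subunit, was at 1438, 1349, 1261 and 928 FPKM (limma adjusted p 0.396).

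Pla2g12b encodes a member of the secreted phospholipase family that has lost catalytic activity and is needed for the proper lipidation of apolipoprotein B particles. The gene (mm9, chr10:58866432-58884724) was at 128 and 133 FPKM in the controls and at 58.1 and 46.8 FPKM in the libraries labelled double knockout. The replicates of each group lay close together and the groups were far apart, with 44.6% and 35.9% of the control mean left in mutant libraries 1 and 2. The means were 130.4 ± 3.25 and 52.4 ± 8.02 FPKM (SD, n = 2 each). The log2 fold change was -1.31 ± 0.18 (SE, 95% interval -1.76 to -0.85) with a limma adjusted p of 0.0176. It was at percentile 4.41 of all log2 fold changes. In the authors' deposited table Pla2g12b had 130.1 FPKM in control and 50.8 FPKM in mutant, with a q-value of 0.000868. The call was lost without control 1, without control 2 and without double-knockout library 2, and was kept without library 1. Each of these fits has 1 library in a group and calls fewer genes over the whole series. The log2 fold change stayed between -1.46 and -1.15 in them.

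Its window is shown as that of the member that changed. It is from RefSeq, build GRCm38.p6, chr10:59403435-59403684, plus strand, 5′ to 3′, and has no capitals because none of the motifs searched was found in it.
Pla2g12b: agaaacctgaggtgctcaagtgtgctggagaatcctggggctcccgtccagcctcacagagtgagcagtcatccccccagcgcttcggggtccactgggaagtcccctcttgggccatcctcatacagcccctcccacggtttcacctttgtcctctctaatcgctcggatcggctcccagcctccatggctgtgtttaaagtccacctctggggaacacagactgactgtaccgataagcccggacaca

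Tm6sf2, named for its membrane spans, encodes a protein of the endoplasmic reticulum that supports the lipidation of secreted lipoproteins. The controls were at 293 and 291 FPKM and the mutants at 204 and 129 FPKM (mm9, chr8:72596830-72603951). The controls were all but equal and both mutants were lower, library 2 more so. The means were 292 ± 1.39 and 166 ± 53.2 FPKM (SD, n = 2 each), and the log2 fold change of -0.85 ± 0.26 (SE, 95% interval -1.52 to -0.17) had an unadjusted p of 0.0239 but a limma adjusted p of 0.115. The authors' deposited table gave Tm6sf2 327 FPKM in control, 189 FPKM in mutant and a q-value of 0.108.

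**Figure D3:**
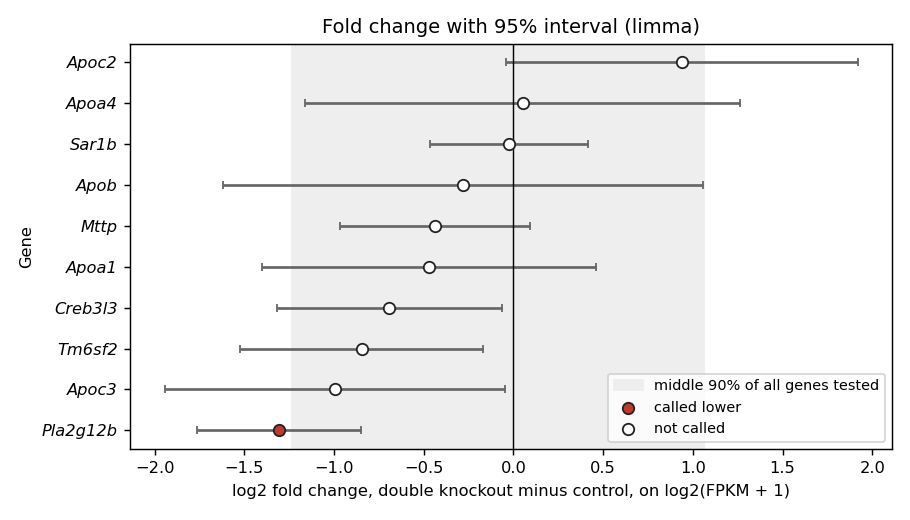
Log2 fold change of each chylomicron gene, libraries labelled double knockout against controls, as a point with its 95% limma interval, beside the middle 90% of all genes tested (-1.23 to 1.07). The interval of Pla2g12b (-1.76 to -0.85) lies farthest from 0, those of Apoc3, Tm6sf2 and Creb3l3 stop short of 0 without passing the adjusted test, and the others span 0.

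Sar1b encodes the GTPase that starts COPII coat assembly, and its human counterpart is mutated in chylomicron retention disease. It had the closest values of all members, 238 and 263 FPKM in the controls and 254 and 239 FPKM in the mutants (mm9, chr11:51577164-51605455). The groups overlapped. Their means were 251 ± 17.4 and 246 ± 10.2 FPKM (SD, n = 2 each), and limma gave a log2 difference of -0.024 with an interval from -0.46 to 0.42 (95%), whose sign turned under quantile normalization (0.046) and with FPKM estimated for each library alone (0.20). Its paralog Sar1a was at 34.6, 34.9, 39.8 and 36.6 FPKM (limma adjusted p 0.601). Sar1b was thus the more abundant of the pair by 6.89 and 7.55 times in the controls and by 6.38 and 6.53 times in the mutants. How reads shared by the paralogs were divided is not given in the sources used here.

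Creb3l3 encodes a transcription factor that is held in the endoplasmic reticulum membrane until it is cleaved, after which it activates apolipoprotein genes, Apoa4 among them. It was at 331 and 322 FPKM in the controls and at 246 and 165 FPKM in the mutants (mm9, chr10:80547077-80561617). Both mutant libraries were lower than both controls. The means were 326 ± 6.08 and 206 ± 57.1 FPKM (SD, n = 2 each), and the log2 fold change of -0.69 ± 0.24 (SE) had a limma adjusted p of 0.147 with an unadjusted p of 0.0368. The authors' deposited table gave Creb3l3 a q-value of 0.252. A message level says nothing of how much of the protein was cleaved.

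The windows before the starts of these genes were searched on both strands for 5 motifs, as a description of sequence. RefSeq (build GRCm38.p6) gave 9 windows of 250 bases for 8 of the members, and Apoc3 and Tm6sf2 had none in the table used. For Mttp and Sar1b the start rests on RefSeq alone, because no transcript start of another annotation, GENCODE, was found there. CAAAGTCCA, the HNF4 motif, was in 0 of the 9, and in 0.384% of the 32851 windows of all genes. CAAAGTTCA, which HNF4 shares with other nuclear receptors, was in the window of Apoa4 alone and in 0.335% of all windows. TTTATNG, the CDX motif, was found before Apoc2 and Apob and in 9.81% of all windows, and before Apob, at -61 to -55, it shared letters with TATAAA. The GATA motif, spelled AGATAA, was found before Creb3l3 at -138 to -133 and in 9.99% of all windows. That match was in the Creb3l3 window at chr10:81092592-81092841. The other Creb3l3 window, farther upstream on the minus strand at chr10:81098873-81099122, held no match to any motif searched. TGACGTG, the CREB3 family motif, was in 0 of the 9 and in 1.65% of all windows. A match in these letters is no measured binding site, and its absence here says nothing of sites elsewhere.

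The members also differed between the 2 libraries labelled double knockout. Library 1 was above library 2 in 10 of 10 members, by a median of 0.62 on the log2 scale, and the widest gap was that of Apoa4, at 2.07-fold. Apoa4, Apob and Apoc2 differed about as much as each other, and Apoc3, Tm6sf2, Creb3l3 and Apoa1 by 1.75, 1.58, 1.49 and 1.47 times. Pla2g12b, Mttp and Sar1b differed least, by 1.24, 1.14 and 1.06 times. Between the controls, library 1 was higher in 5 of the 10, with a median absolute difference of 0.13 on the log2 scale. Against the control mean, 6 members were lower in mutant library 1 and 9 in mutant library 2.

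Other abundant genes shared that tilt in a smaller measure. Of 953 other genes that averaged 100 FPKM or more, 691 (72.5%) were higher in mutant library 1 than in library 2, by a median of 0.15 on the log2 scale, while over all genes tested 53.2% were, by a median of 0.022. Beside this, the Paneth cell defensin gene Defa24, the most abundant of its list, was at 32235 and 30779.9 FPKM in the controls. In mutant libraries 1 and 2 it was at 25477 and 57893 FPKM, and its values were known when it was named. Ang4 (44.3 and 565 FPKM), Defa17 (165 and 329), Itln1 (1272 and 1901) and Lyz1 (1774 and 1956) were also higher in mutant library 2. Mmp7 was lower in it, at 242 and 201 FPKM. The enterocyte sum was 7775 and 6372 FPKM in mutant libraries 1 and 2. The 10 members made up 4.56% and 4.64% of all FPKM in the controls, 5.06% in mutant library 1 and 3.07% in library 2. The part of cell makeup and of depth in these differences was not tested. Of the 10 log2 fold changes, all but those of Apoa4, Apob and Sar1b kept their direction with either mutant library left out.

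The wider pathway was read from 7 lists of 98 genes besides the members, of which 79 were tested. Limma called 4 lower and 6 higher, beside 5.85% and 3.79% of all genes tested, with a median log2 fold change of -0.031. At an unadjusted p under 0.05 there were 19 lower and 14 higher, to be read against the 15.0% and 13.3% of all genes at that threshold, as are the counts per list that follow. The authors' deposited table called 8 lower and 8 higher, beside 7.31% and 5.90% of the genes it tested. Calls per list below are to be read against the shares given here for the same test. The calls fell mostly among transcription factors and genes of lipolysis and uptake, and among the genes that supply triglyceride limma called none. The transcription factors called included Hnf4a and Cdx2, the genes targeted in these mice.

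Of 9 other apolipoprotein genes, 3 were abundant enough to test, and limma called 1 higher and 0 lower (0 lower also at an unadjusted p under 0.05 and in the authors' deposited table). That gene was Clu, which encodes clusterin, a secreted chaperone also known as apolipoprotein J. Clu was at 2.54 and 2.1 FPKM in the controls and at 22.4 and 9.09 FPKM in the mutants, a log2 fold change of 2.21 ± 0.42 (SE) with a limma adjusted p of 0.0406, which became 0.127 and 0.170 without control 1 and without control 2. It was 0.0619 with a pseudocount of 5 FPKM and 0.0840 with no filter on low values. Apoe, the ligand for remnant uptake, was at 6.29, 6.31, 3.89 and 5.00 FPKM (limma adjusted p 0.203). Apoa5, Apoc1, Apoc4, Apod, Apoh and Apom were too low to test.

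Among 14 tested genes of triglyceride supply and lipidation, limma called 0 in either direction, with 5 lower and 0 higher at an unadjusted p under 0.05 and 0 called in the authors' deposited table. Their median log2 fold change was -0.22. The fatty acid carriers Fabp1 and Fabp2 were the most abundant of them. Fabp1 was at 6863, 8237, 10015 and 5532 FPKM, and Fabp2 at 8157, 6439, 7467 and 8924 FPKM, with limma adjusted p-values of 0.988 and 0.765. Unlike each of the 10 members, Fabp2 was higher in mutant library 2 than in mutant library 1.

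Of 20 tested genes of the COPII coat and the chylomicron carrier, limma called 1 lower and 0 higher, as the authors' deposited table did, and at an unadjusted p under 0.05 there were 6 lower and 0 higher. The one called was Bet1, a SNARE of traffic from the reticulum to the Golgi, at 60.9 and 65.6 FPKM in the controls and 32.0 and 19.8 FPKM in the mutants. Its log2 fold change was -1.30 ± 0.26 (SE) with a limma adjusted p of 0.0458, and leaving out single libraries moved that p between 0.0288 and 0.179. It was lost without control 1, without control 2 and without double-knockout library 2, as well as under 5 of the other settings. Surf4, which encodes a cargo receptor for lipoproteins, was at 227, 264, 236 and 189.9 FPKM (limma adjusted p 0.544).

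Lipolysis and uptake gave 2 genes called higher and 0 lower of 8 tested by limma (1 lower and 4 higher at an unadjusted p under 0.05, and 1 lower and 3 higher in the authors' deposited table). Angptl4, which encodes a secreted inhibitor of lipoprotein lipase, was at 26.5 and 11.8 FPKM in the controls and at 267 and 318 FPKM in the mutants. It rose by 3.96 ± 0.39 (SE) on the log2 scale with a limma adjusted p of 0.00877. Scarb1, the receptor that takes lipid from high-density lipoprotein, was at 3.41 and 1.29 FPKM in the controls and at 37.7 and 32.2 FPKM in the mutants, and rose by 3.50 ± 0.34 (SE) with a limma adjusted p of 0.00877. Both kept their call with any single library left out, with adjusted p-values from 0.0241 to 0.0361. In neither gene did the groups come near each other.

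Of 24 transcription factors and coactivators known to act on apolipoprotein genes, limma called 3 lower and 3 higher. Of these, Hnf4a (lower) and Cdx2 (higher) are the targeted genes. At an unadjusted p under 0.05 there were 5 lower and 6 higher, and the authors' deposited table called 4 in each direction. Hnf4a, given above, fell most. Ppargc1a, a coactivator of nuclear receptors, was at 11.8 and 13.1 FPKM in the controls and at 2.16 and 2.66 FPKM in the mutants, a log2 fold change of -1.98 ± 0.17 (SE) with a limma adjusted p of 0.00745. Hnf4g, the intestinal paralog of Hnf4a, was at 169.6 and 238 FPKM in the controls and at 80.7 and 57.8 FPKM in the mutants, a log2 fold change of -1.54 ± 0.26 (SE) with a limma adjusted p of 0.0315. Without a filter on low values Hnf4g had an adjusted p of 0.0601 by limma, and how reads that match both paralogs were divided is likewise not given.

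The 3 called higher were Pparg, Foxa1 and Cdx2. Pparg, a fatty acid receptor of the nuclear receptor family, was at 6.75, 9.80, 27.2 and 38.3 FPKM, with a log2 fold change of 1.86 ± 0.26 (SE) and a limma adjusted p of 0.0182. Foxa1, a forkhead factor of gut endoderm, was at 6.43, 5.09, 14.6 and 15.4 FPKM, with a log2 fold change of 1.25 ± 0.17 (SE) and a limma adjusted p of 0.0186. In each of these genes the groups lay apart. The calls in this list hung on single libraries: limma adjusted p-values went above 0.05 without control 1 and without control 2 for all 6, reaching 0.127 for Hnf4g, and also without double-knockout library 2 for Hnf4g, Pparg, Foxa1 and Cdx2 and without library 1 for Foxa1 and Cdx2.

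The CREB3 family with its proteases and targets had 7 tested genes and 0 calls by limma, with 1 lower and 2 higher at an unadjusted p under 0.05 and 1 lower in the authors' deposited table. Creb3, the founding member, was at 31.1, 37.7, 52.7 and 55.0 FPKM (limma adjusted p 0.0829). Cidec, a lipid droplet protein gene and a known target of Creb3l3, was at 64.1, 102, 87.3 and 65.9 FPKM (limma adjusted p 0.867).

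**Figure D4:**
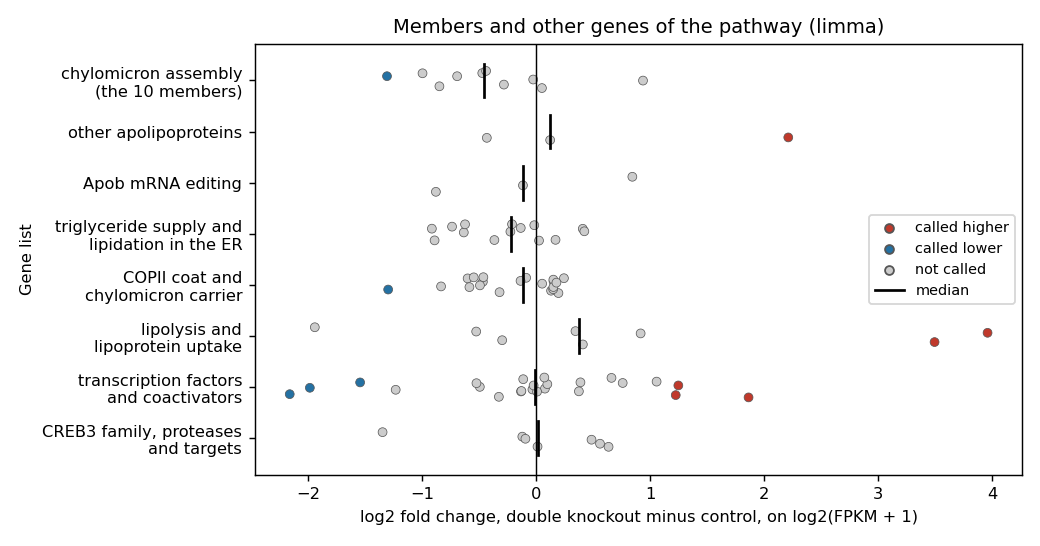
Log2 fold change of every tested gene of the chylomicron set and of the 7 further pathway lists, 1 point per gene, with the genes that limma called marked and the median of each list drawn. Angptl4 (3.96) and Scarb1 (3.50) stand far to the right in the lipolysis list, Hnf4a (-2.16) and Ppargc1a (-1.98) to the left among transcription factors, and triglyceride supply has no called gene.

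Several members have close neighbours in the genome. Apoa1, Apoc3 and Apoa4 lie side by side on chromosome 9, and the log2 values of this cluster were -0.47, -0.99 and 0.053. Neighbours were counted where their lower mm9 coordinate lay within 100 kb, so a gene that only reaches into that window from below was left out. Of 4 further genes counted around the cluster 2 were tested, and limma called 0 of them. There were 0 lower and 1 higher at an unadjusted p under 0.05, and 0 called by the authors' deposited table. Around Apoc2, 7 of 10 neighbours counted by the same rule were tested, and limma called 1 lower and 1 higher. Relb, a subunit of NF-kB, was at 39.3, 35.3, 16.1 and 15.3 FPKM, with a log2 fold change of -1.20 ± 0.15 (SE) and a limma adjusted p of 0.0150. Tomm40, part of the mitochondrial import pore, was at 22.7, 22.0, 42.3 and 49.9 FPKM, with a log2 fold change of 1.01 ± 0.16 (SE) and a limma adjusted p of 0.0265. Both lost their limma call with any one library left out, with adjusted p-values of 0.0523 to 0.0753 for Relb and 0.0574 to 0.120 for Tomm40. The Apoc2 locus thus held called genes of both directions, and Apoc4 and Apoc1, the apolipoprotein genes nearest to it, were at no more than 0.635 and 1.01 FPKM.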

How the data were processed

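RNA-seq of jejunal epithelium gave 4 libraries, 2 in each group, assigned from the sample titles. Per the labels' protocols, EDTA (5 mM, 45 minutes, 4 °C) loosened the epithelium, and TruSeq libraries gave single-end reads of 75 bases. Strandedness is not stated. Per the submitters' processing notes, TopHat2 2.0.9, Cufflinks 2.1.1, Cuffnorm, Cuffdiff and build mm9 were used, with no roles given. The expression table the authors deposited has 23735 rows and a column for each library. Its header names no unit, and its values were taken as FPKM normalized between libraries. Per the file headers, per-library files hold FPKM with gene positions. The comparison table the authors deposited holds group FPKM, p-values, q-values and calls. No deposited file used here holds counts, so counting error and absolute depth are unknown. Relative depth was read from values under 0.3 FPKM as the step that 1 read is worth, in 1612 to 2081 genes per library. Of their ratios to control 1, 53.5% to 56.7% equalled ratios of whole numbers up to 4 within 1%, so whole reads were not recovered.

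Rows sharing a symbol were summed (160 symbols), and 1025 short-RNA symbols were left out. Genes averaging 1 FPKM or more were tested with limma 3.58.1 in R 4.3.3 on log2(FPKM + 1), genotype as the only term, an intensity trend, two-sided, with Benjamini-Hochberg adjustment over all 10886. This scale understates the change of low genes. The fitting code was tested on simulated data. The members and lists were chosen with earlier results of these data known. Named besides the members were, from each pathway list, up to 2 called genes in each direction with the greatest change. Where none was called, the 2 most abundant were named. Hnf4a, Cdx2, Hnf4g, Apoe, Sar1a, Apobec1, P4hb and Surf4 were added, with called neighbours whose lower coordinate lay within 100 kb. Alternatives varied the pseudocount, the filter, the scaling, the trend and the replicate block, and left out each library in turn. Same-numbered libraries showed no shared shift: their deviations from their group means correlated at -0.0049, across genes, with only 2 numbers. This cannot tell whether mice or preparations were paired.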

Additional observations from a re-analysis of the deposited data

How the results depend on the processing

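Of the 13 alternatives, 10 kept Pla2g12b called lower. Leaving out single libraries gave 0 to 1 members called lower, and its log2 fold change ran from -1.46 to -1.15. The count of members called higher was 0 in every setting run. Of the other pathway genes, 2 rather than 4 were called lower with no filter on low values, and leaving out single libraries gave 0 to 6 lower and 2 to 4 higher in place of 6. Those fits call fewer genes throughout: over all genes, 101 lower and 67 higher without control 1, and 86 and 71 without control 2, against 637 and 413. The replicate number was also used as a block, although same-numbered libraries showed no shared shift. With it, 1 member was called lower (Pla2g12b, limma adjusted p 0.0394) and 0 higher, with 3 pathway genes lower and 6 higher. Bet1 (0.0622), Hnf4g (0.0605) and Tomm40 (0.0567) lost their limma call under that block.

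Apoc2 (0.44 to 1.44), Apoc3 (-1.40 to -0.59), Tm6sf2 (-1.18 to -0.52), Creb3l3, Mttp and Apoa1 kept direction and stayed uncalled in all 13 alternatives. The sign turned for Apoa4 (quantile -0.39, single libraries left out -0.47 to 0.58), Apob (-0.87 to 0.31) and Sar1b (quantile 0.046, FPKM of each library alone 0.20, -0.095 to 0.047). It also turned for Fabp1 (each library alone 0.13, single libraries left out -0.44 to 0.41), Rbm47 (each library alone 0.083) and Cidec (quantile 0.031, each library alone 0.012, -0.42 to 0.24). The cause was not tested. FPKM of each library alone moved the median of all genes from 0.025 to 0.17 and that of the members from -0.45 to -0.31. The settings applied to genes other than the members were chosen after seeing the data. With 2 libraries a group, a group left with 1 library borrows the spread of the other.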
